A study of Mus musculus with 57 samples.

Results

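C1qa, C1qb, C1qc, Apoe, Selenop and Igf1 encode secreted proteins that tissue macrophages are known to make, and their values were followed cell by cell in cells sorted as tumour cells from mouse bone. The 6 genes were chosen by their higher values in dormant than in proliferating cells of these same data, so their differences between the states are given as a description, with no test. They are 6 of 12887 genes with values, of which 11843 were above 0 in at least 6 cells and entered the fits. RM1 is a mouse prostate cancer line, and the RM1536 cells used carry 2 label genes, eCFP for cerulean and Luc2 for luciferase. They were stained with PKH26, a dye that lodges in the membrane, and given by intracardiac injection to C57BL/6 mice, and single cells were sorted from bone between day 13 and day 26. Dividing cells dilute the dye, so sorted cells that had kept it are called dormant (PKH26+) and cells that had lost it proliferating (PKH26-). Full-length RNA-seq values were given for 28 dormant and 29 proliferating cells. Each state came from 6 mice, and 4 of the 8 mice in all gave both.

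The C1q A, B and C chains assemble into C1q, the recognition part of the classical complement pathway, and Apoe carries cholesterol and other lipids to receptors on the cell surface. Selenop carries selenium from cell to cell, and Igf1 is the ligand of the Igf1 receptor and promotes growth and survival. Macrophages are a main source of C1q in the body, while the liver supplies most of the Apoe, Selenop and Igf1 in blood.

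Values are the authors' normalised reads per gene and cell. Cells were placed in classes by eCFP. The 6 dormant cells with eCFP under 100 came from mice 244, 360, 369 and 1184 and are called low-label dormant cells, and the other 22 dormant cells are called labelled. All 29 proliferating cells had eCFP of at least 100. Lyz2, which encodes the lysozyme of myeloid cells, was used as a second axis, with limits of 1000 and 10000 normalised reads. A gene at 100 normalised reads or more is called high. The limits on eCFP and Lyz2 and the level for high were set with values of these data known. Between 945351 and 5306777 reads per cell could be recovered from the values, and between 2399 and 10509 genes were above 0 per cell.

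The genes lie in 4 places in the genome (GRCm38, GENCODE vM21). C1qb (136880129 to 136886187), C1qc (136889804 to 136893065) and C1qa (136895917 to 136898803) are neighbours on the minus strand of chromosome 4. Apoe is on the minus strand of chromosome 7 (19696109 to 19699188). Selenop is on the plus strand of chromosome 15 (3268547 to 3280508) and Igf1 on the plus strand of chromosome 10 (87858265 to 87937042). Promoters of 5 of the 6 genes were matched by symbol in the RefSeq table (GRCm38.p6) in 9 entries of 300 bases, each around a start site. Of the entries, 3 are shown. C1qb and C1qc are neighbours that were high in the same cells, and Selenop also reached 100 normalised reads in cells where the others did not. Capitals mark 2 motifs searched on both strands, the core of PU.1 sites, GAGGAA, read TTCCTC on the other strand, and a half-site of MAF factors, TGCTGA, read TCAGCA on the other strand.
C1qb, chr4:136886151-136886450, minus strand: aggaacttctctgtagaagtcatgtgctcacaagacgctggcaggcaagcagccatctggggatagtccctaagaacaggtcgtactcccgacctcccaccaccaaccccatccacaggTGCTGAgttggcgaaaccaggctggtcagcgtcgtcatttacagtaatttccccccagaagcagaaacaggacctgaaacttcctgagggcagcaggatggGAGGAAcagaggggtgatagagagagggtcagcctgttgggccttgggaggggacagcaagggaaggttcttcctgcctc
C1qc, chr4:136892865-136893164, minus strand: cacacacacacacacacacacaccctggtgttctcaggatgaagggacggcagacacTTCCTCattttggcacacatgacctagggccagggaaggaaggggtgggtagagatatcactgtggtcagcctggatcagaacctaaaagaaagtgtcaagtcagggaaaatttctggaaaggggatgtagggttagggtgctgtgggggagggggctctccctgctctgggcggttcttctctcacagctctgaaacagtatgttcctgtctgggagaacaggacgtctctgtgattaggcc
Selenop, chr15:3270517-3270816, plus strand: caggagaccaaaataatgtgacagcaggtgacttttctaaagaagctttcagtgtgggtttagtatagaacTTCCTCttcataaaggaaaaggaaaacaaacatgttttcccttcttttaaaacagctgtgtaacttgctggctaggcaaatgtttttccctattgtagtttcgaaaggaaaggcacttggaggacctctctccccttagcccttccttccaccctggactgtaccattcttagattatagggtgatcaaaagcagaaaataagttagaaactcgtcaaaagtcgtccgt
The PU.1 core stood in 7 of the 9 entries, with at least 1 entry for each of the 5 genes, against 28.3% of all 32851 promoters of this length. Apoe and Selenop had several entries each, and the Selenop entry at 3270561 to 3270860 overlaps the one shown and holds the same core. The core was absent from the Selenop entry at 3270727 to 3271026 and from the Apoe entry at 19698572 to 19698871. The counts by entry and by gene are thus not on one footing with the share of single promoters. The MAF half-site stood in the entry of C1qb, 1 of the 5 genes, against 19.5% of all promoters. A match says only that these letters are there.

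The 6 genes mostly occurred in the same few cells. At least 3 of them were high in 5 of the 6 low-label dormant cells, in 3 of the 22 labelled dormant cells and in 0 of the 29 proliferating cells. A count of 0 of 29 cells allows a share of up to 10.3%, 0 of 22 up to 13.6% and 0 of 6 up to 50%, for counting error only. These limits are 3 divided by the number of cells, which is rough for 6 cells. They take cells as independent, although cells share mice. Most of the signal sat in cells with little or no tumour label, but 3 dormant cells with eCFP and Luc2 carried it too. These 8 cells, called carriers below, came from 4 mice.

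**Figure D1:**
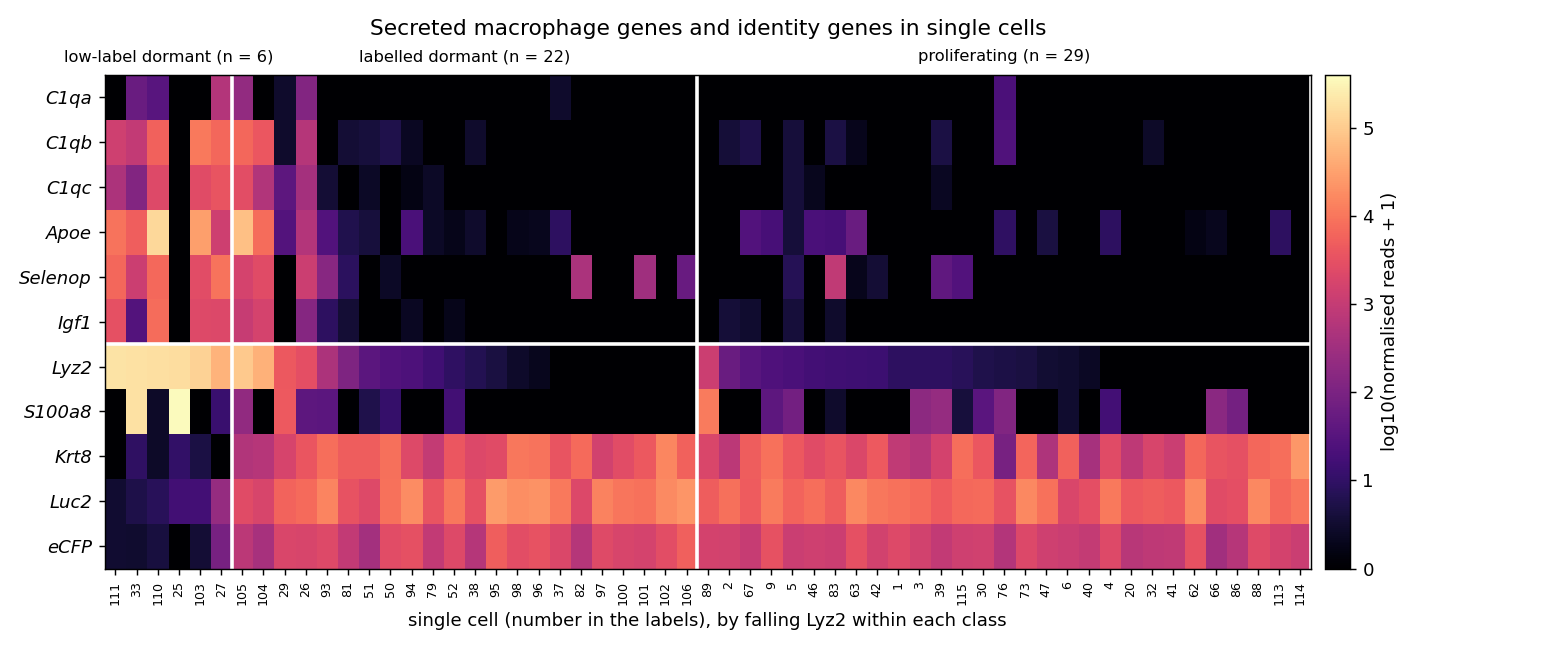
Heat map of log10(normalised reads + 1) for the 6 secreted genes (above the white line) and 5 identity genes (under it) in each of the 57 cells, grouped as 6 low-label dormant, 22 labelled dormant and 29 proliferating cells and ordered by falling Lyz2 within each class. The bright block of secreted genes covers 5 of 6 low-label cells and labelled cells 105, 104 and 26, and the proliferating cells are dark except for Selenop in cell 83.

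The low-label cells were first checked for what they express. Their median Krt8, an epithelial keratin of RM1 cells, was 2.86 normalised reads, against 3801 in labelled dormant cells and 3023 in proliferating cells. Median Lyz2 was 168437 in low-label cells, 7.19 in labelled dormant cells and 4.18 in proliferating cells. Each low-label cell had 10 to 18 of the 18 pan-leukocyte genes of a marker list above 0. Labelled dormant cells had 1 to 18 of them above 0 (median 4.5), and proliferating cells 1 to 14 (median 4). Of 23 macrophage markers, 21 were in the table, and 4 to 18 were above 0 in a low-label cell, 3 to 20 in a labelled dormant cell and 1 to 8 in a proliferating cell. Summed over the markers, levels ran from 65150 to 211989 in low-label cells, 46.0 to 113923 in labelled dormant cells and 2.10 to 8083 in proliferating cells. Lyz2 was above 0 in 6 of 6 low-label cells, and Cd68 (a lysosomal protein of macrophages), Ms4a7, Slc40a1 (the iron exporter) and Axl (a receptor for dying cells) in 5. Ms4a7 was above 0 in 5 of 22 labelled dormant cells and in 0 of 29 proliferating cells. Axl set no class apart, since it was above 0 in 22 of 22 labelled dormant and 28 of 29 proliferating cells. Lyz2 was also above 0 in 15 labelled dormant and 19 proliferating cells, Cd68 in 17 and 16, and Slc40a1 in 15 and 11. Other markers of the list were seen in few low-label cells. Vcam1 was above 0 in 2 low-label, 13 labelled dormant and 21 proliferating cells, and Mertk in 1, 11 and 7. Mrc1, Siglec1, Cd5l and Marco were each above 0 in 1 low-label cell.

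The low-label cells were not of one kind. Adgre1, which encodes the macrophage protein F4/80, was 2891, 2029, 942 and 807 normalised reads in cells 110, 111, 27 and 103. It was 0 in cells 25 and 33. These same 2 cells had S100a8, a calcium-binding protein abundant in neutrophils, at 378089 and 180886, and Ly6g, a neutrophil surface protein, at 1469 and 1901. Cell 25 was the low-label cell in which all 6 secreted genes were at 0, although its Lyz2 was 163585. Cell 33 had C1qb at 934, C1qc at 131, C1qa at 55.8, Apoe at 4998, Selenop at 1216 and Igf1 at 27.9 beside its neutrophil genes. Checked against macrophage markers, 7 of the 8 carriers had Adgre1 of at least 100, with cell 33 as the exception, and all 8 had Cd68 of at least 100. Csf1r, the receptor for the macrophage growth factor, was at least 100 in 5 of the 8.

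C1qb was high in dormant cells only, 5 low-label and 3 labelled. In low-label cells it ranged from 0 to 10670 normalised reads with a median of 3523. In labelled dormant cells it ranged from 0 to 6419 with a median of 0, and in proliferating cells from 0 to 25.1 with a median of 0. It was above 0 in 5 of 6 low-label, 9 of 22 labelled dormant and 8 of 29 proliferating cells. C1qc followed it, with medians of 1378 in low-label cells, 0 in labelled dormant cells and 0 in proliferating cells. The highest C1qc values were 3671, 2828 and 2.94 in low-label, labelled dormant and proliferating cells. C1qa was above 0 in the fewest cells of the 6 genes. It was found above 0 in 3 of 6 low-label, 4 of 22 labelled dormant and 1 of 29 proliferating cells, with highest values of 576, 216 and 20.9.

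Apoe reached 142947 normalised reads in low-label cell 110 and was 29556, 9557, 4998, 1329 and 0 in cells 103, 111, 33, 27 and 25. Labelled dormant cells ranged from 0 to 73170 with a median of 1.27. Proliferating cells ranged from 0 to 56.6 with a median of 0. The 8 carriers were the cells with high Apoe, and every other cell, dormant or proliferating, was at 56.6 or lower. Traces of Apoe were frequent, since it was above 0 in 14 of 22 labelled dormant and 12 of 29 proliferating cells.

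Selenop had a median of 4618 normalised reads in low-label cells and ranged from 0 to 9370. It ranged from 0 to 2497 in labelled dormant cells, with 9 of 22 above 0, and from 0 to 883 in proliferating cells, with 6 of 29 above 0. Igf1 had a median of 2249 and a range of 0 to 7800 in low-label cells. In labelled dormant cells 7 of 22 held Igf1, at up to 1723, and in proliferating cells 4 of 29, at up to 2.94. Igf1 was thus a trace in proliferating cells wherever it was seen. Selenop was high in proliferating cell 83 only, from mouse 1185, and every other proliferating cell was at 41.7 or lower.

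The labelled dormant carriers were cells 105 and 104 from mouse 1184 and cell 26 from mouse 369. Cell 105 had C1qb at 6419, C1qc at 2828, C1qa at 216, Apoe at 73170, Selenop at 1649 and Igf1 at 1086 normalised reads. Cell 104 had C1qb at 3999, C1qc at 556, C1qa at 0, Apoe at 7704, Selenop at 2497 and Igf1 at 1723. These values lay inside the range of the low-label carriers. Cell 26 was lower, with C1qb at 616, C1qc at 371, C1qa at 126, Apoe at 589, Selenop at 1276 and Igf1 at 140. In cell 26, C1qb and Apoe were under the lowest low-label carrier, while C1qc, Selenop and Igf1 were inside their range.

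All 3 labelled carriers also had myeloid genes. Lyz2 was 95205 in cell 105, 48048 in cell 104 and 2940 in cell 26, and 18, 13 and 16 of 18 pan-leukocyte genes were above 0. Tumour genes were present in the same cells. Krt8 was 560, 653 and 3679 in cells 105, 104 and 26, and eCFP was 736, 418 and 1831, against a median of 2034 over labelled dormant cells. Mki67, a marker of cycling cells, was 0, 131 and 759. All 3 cells had Krt8 and eCFP below the medians of labelled dormant cells, and all 3 held both sets of genes. The part of these leukocyte genes in the result was not tested.

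The eCFP threshold separated these cells narrowly in one case. Just inside the low-label class was cell 27 with eCFP at 87.6, and the next cells above the threshold were proliferating cell 66 at 327, dormant cell 51 at 349 and dormant cell 104 at 418. Cell 27 had all 6 genes high, cell 104 had 5 and cells 66 and 51 had none.

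All carriers had Lyz2 of at least 1000. Of the 11 cells with Lyz2 of at least 1000, 8 were carriers. The exceptions were low-label cell 25, labelled dormant cell 29 and proliferating cell 89. Cell 29, with Lyz2 at 4262, had C1qc at 37.4, Apoe at 27.5 and C1qa and C1qb at 1.97, with Selenop and Igf1 at 0. Cell 89, with Lyz2 at 1251, had all 6 at 0. All 3 exceptions had high S100a8, at 378089 in cell 25, 4450 in cell 29 and 11263 in cell 89, and carriers 33 and 105 had it at 180886 and 199. Among cells with Lyz2 under 1000, C1qa, C1qb, C1qc, Apoe and Igf1 were high in 0 of 18 labelled dormant and 0 of 28 proliferating cells.

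**Figure D2:**
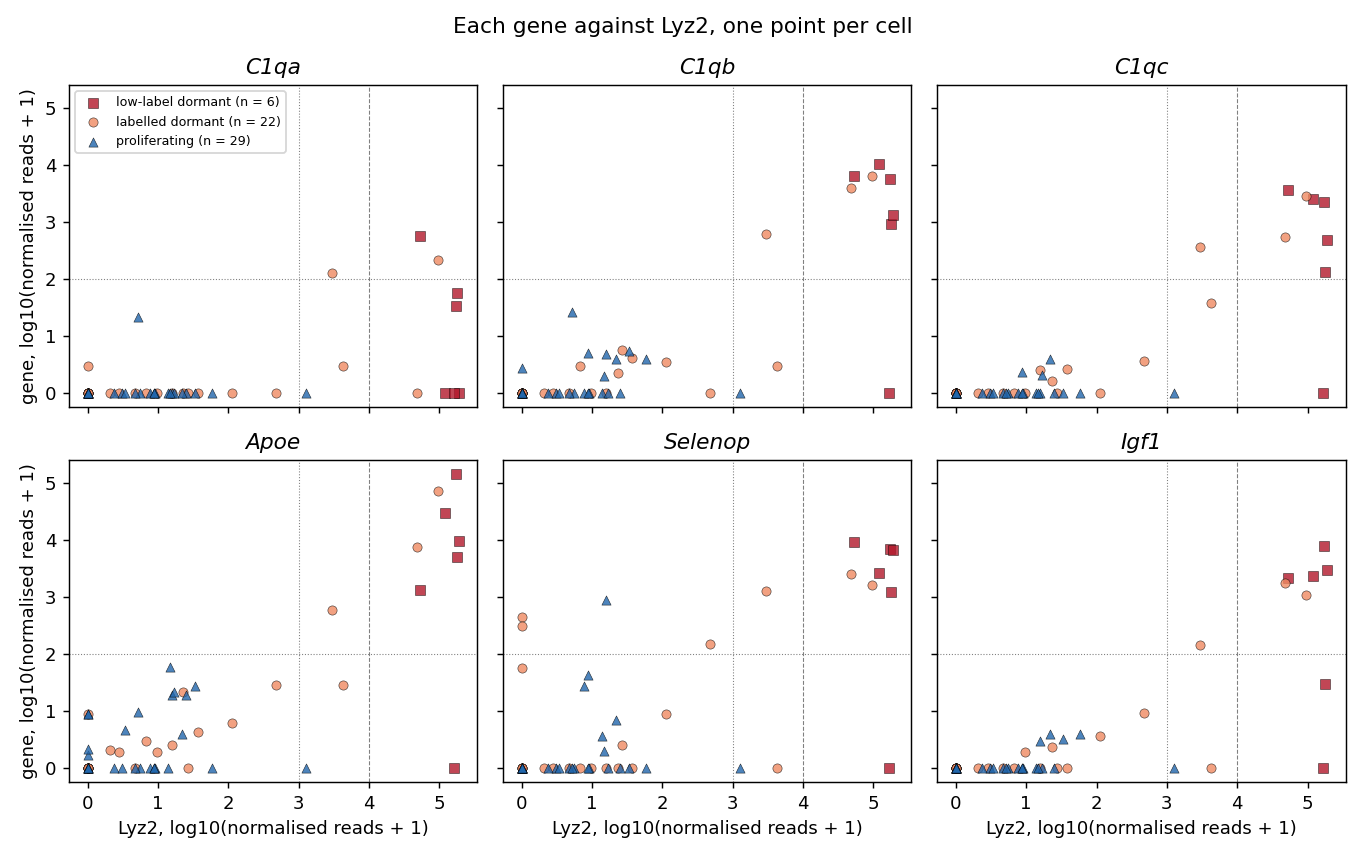
Each secreted gene against Lyz2, both as log10(normalised reads + 1), with 1 point per cell for low-label dormant (squares, n = 6), labelled dormant (circles, n = 22) and proliferating cells (triangles, n = 29). The dotted horizontal line is at 100 normalised reads and the vertical lines are at Lyz2 of 1000 (dotted) and 10000 (dashed); 4 points of Selenop lie above the horizontal line to the left of both, and no point of the other genes does.

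Below Lyz2 of 1000, labelled dormant cells held only traces of the genes other than Selenop. In those 18 cells the highest values were 1.95 for C1qa, 4.60 for C1qb, 2.68 for C1qc, 26.8 for Apoe and 8.03 for Igf1. In proliferating cells the highest values were 20.9 for C1qa, 25.1 for C1qb, 2.94 for C1qc, 56.6 for Apoe and 2.94 for Igf1. Apoe was above 0 in 10 of the 18 cells, C1qb in 5, C1qc in 4, Igf1 in 4 and C1qa in 1. At least 1 of the 6 genes was above 0 in 18 of all 22 labelled dormant cells and 17 of 29 proliferating cells. With at least 10 recovered reads required, the labelled dormant count fell to 9 of 22, so many of these traces rested on a few reads.

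Selenop was the exception. It was high without any other of the 6 genes in labelled dormant cells 82, 101 and 93, at 443, 311 and 150 normalised reads, and in proliferating cell 83, at 883. These were 176, 290 and 56 recovered reads in cells 82, 101 and 93, and 904 in cell 83. Lyz2 was 0 in cells 82 and 101, 477 in cell 93 and 14.7 in cell 83. Of 18 pan-leukocyte genes, 14 were above 0 in cell 93, against 2, 3 and 6 in cells 82, 101 and 83. Cell 93 also held Apoe at 26.8 and S100a8 at 34.8. Krt8 was between 3597 and 7830 in the 4 cells, and eCFP between 629 and 2249. All 4 came from mouse 1185, which gave 11 dormant and 4 proliferating cells. Cell 106, from mouse 1184, had Selenop at 55.0 with the other 5 genes and Lyz2 at 0.

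Over mice, the dormant means of all 6 genes were above the proliferating ones, as the choice of the genes fixed. For each mouse and state, log2(normalised reads + 1) was averaged over the cells, with cells at 0 included, so that both the level and the share of cells with the gene enter a difference. Apoe means by mouse were 15.17 in mouse 360, 12.29 in 244, 8.78 in 1184, 4.85 in 369, 1.37 in 1185 and 0.99 in 452 for dormant cells. For proliferating cells they were 2.60 in mouse 452, 2.11 in 268, 1.05 in 360, 1.05 in 1185, 0.90 in 369 and 0.00 in 288. The dormant means fell into high and low mice and the low ones, 1185 and 452, overlapped with the proliferating range. The 2 mice with the highest Apoe gave low-label dormant cells only, 2 from mouse 360 and 1 from mouse 244.

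Averages over the 6 dormant and 6 proliferating means had wide errors. Apoe averaged 7.24 ± 5.83 in dormant cells and 1.29 ± 0.93 in proliferating cells (SD, n = 6 mice each), a log2 difference of 5.95 with a standard error of 1.84. C1qb averaged 5.81 ± 4.54 and 0.42 ± 0.54 in dormant and proliferating cells, C1qc 4.76 ± 3.84 and 0.05 ± 0.13, and C1qa 2.19 ± 2.21 and 0.12 ± 0.30. Selenop averaged 6.28 ± 4.77 in dormant cells and 0.83 ± 1.00 in proliferating cells, and Igf1 4.57 ± 4.45 and 0.16 ± 0.18. The differences were 5.39, 4.70, 2.06, 5.45 and 4.40 for C1qb, C1qc, C1qa, Selenop and Igf1, against a median of -0.35 over all genes tested. By limma with an adjusted p threshold of 0.05, 0% of 11843 genes passed, and 389 genes were higher in dormant cells (3.28%) and 737 lower (6.22%) at an unadjusted p under 0.05. edgeR on recovered reads called 18 genes and DESeq2 302.

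In labelled cells alone, 22 dormant cells from 4 mice against the 29 proliferating cells from 6, the differences were smaller. Labelled dormant means of Apoe were 7.27 in mouse 1184, 4.68 in 369, 1.37 in 1185 and 0.99 in 452, with an average of 3.58 ± 2.97 (SD, n = 4 mice). The log2 difference was 2.29 with a standard error of 1.16 for Apoe, 2.34 (0.91) for C1qb, 2.30 (0.79) for C1qc, 2.29 (1.06) for Selenop and 1.80 (0.76) for Igf1. C1qa was above 0 in too few labelled cells to be fitted, and its difference with no filter was 0.99. The median over all genes was 0.09. By limma's adjusted p, 0% of 11595 genes passed, and 168 genes were higher (1.45%) and 59 lower (0.509%) in dormant cells at an unadjusted p under 0.05, while edgeR called 0 and DESeq2 14.

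The differences in labelled cells were also taken without the cells at or above each Lyz2 limit. Without the 2 labelled cells with Lyz2 of at least 10000, both from mouse 1184, the differences were 0.80 for C1qb, 1.01 for C1qc, 0.47 for Apoe, 1.28 for Selenop and 0.50 for Igf1. Without all labelled cells with Lyz2 of at least 1000 they were 0.19 ± 0.49 for C1qb, 0.15 ± 0.34 for C1qc, -0.17 ± 0.74 for Apoe, 0.50 ± 0.82 for Selenop and 0.03 ± 0.36 for Igf1 (SE). Each of these 5 was smaller than its standard error, which is no test here. The limit of 1000 takes out all labelled carriers and other cells that share genes with them. Carriers were defined by high values of these same genes, so smaller differences were built into the selection. These values describe the cells left and do not test the 6 genes. With the mouse as a replicate block in the 3 mice that gave labelled cells of both states, the differences were 0.79 for C1qb, 1.31 for C1qc, 0.83 for Apoe, 0.71 for Selenop and 0.56 for Igf1. Without mouse 1184 the labelled differences ranged from 0.72 for Igf1 to 1.37 for C1qc.

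**Figure D3:**
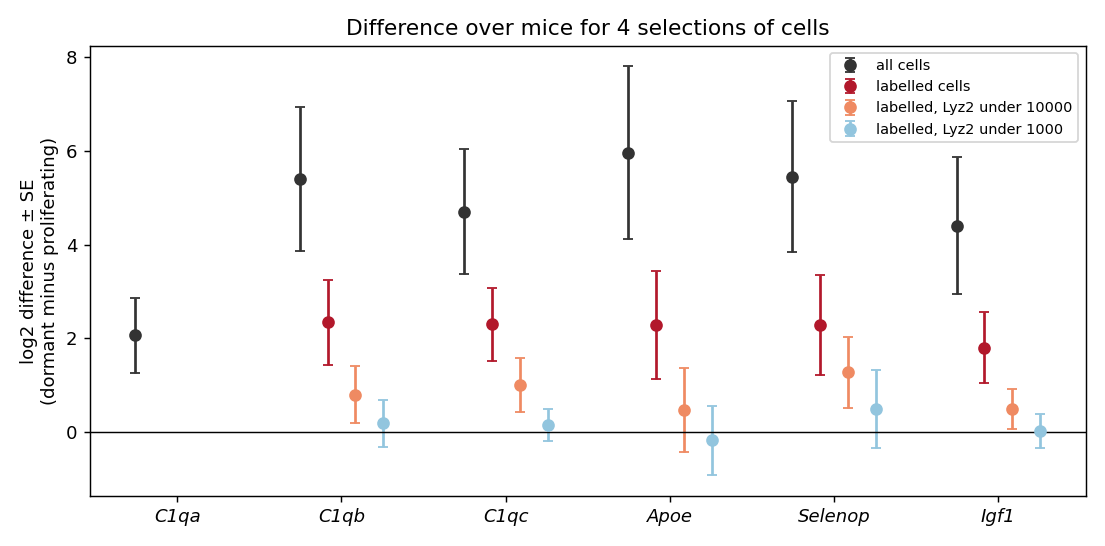
Log2 difference of mouse means, dormant minus proliferating, with standard errors, for each gene in all cells (6 and 6 mice) and in 3 selections of labelled cells (4 and 6 mice). The differences fall from between 4.40 and 5.95 in all cells (2.06 for C1qa) to between -0.17 and 0.50 in labelled cells with Lyz2 under 1000; C1qa was fitted in all cells only.

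Within the 4 mice that gave cells of both states, with the mouse as a replicate block, the differences were 3.72 for C1qb, 3.70 for C1qc, 1.25 for C1qa, 4.19 for Apoe, 3.65 for Selenop and 3.79 for Igf1. Of 11843 genes 0% passed limma's adjusted test there, and 1.04% were higher and 7.86% lower in dormant cells with an unadjusted p under 0.05. Mouse 360 had the widest contrast of the 4 mice for each of the genes but C1qa. Its 2 dormant cells, both low-label, had an Igf1 mean of 12.24, against 0.00 in its 3 proliferating cells. Without mouse 360 the differences were 1.15 for C1qb, 1.59 for C1qc, 0.82 for C1qa, 0.88 for Apoe, 1.16 for Selenop and 0.98 for Igf1. Mouse 452, whose dormant cells were all labelled, had Apoe at 0.99 in dormant and 2.60 in proliferating cells, the other way round.

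The carriers differed in the proportions of their C1q reads. Per kilobase of exon, the median over the 8 carriers was 4451 normalised reads for C1qb, 1179 for C1qc and 42.6 for C1qa. C1qa had no read in cells 103, 104 and 111, in which C1qb had 8017, 3792 and 598 recovered reads. Where C1qa was above 0, C1qb was 4.90 times C1qa in cell 26, 11.5 in cell 27 and 16.7 in cell 33. The ratio was 29.8 in cell 105 and 174 in cell 110. These are ratios of reads, not corrected for exon lengths of 1088 bases for C1qb and 1040 for C1qa. C1qb was 1.66 to 7.20 times C1qc in all 8, likewise in reads. The proteins of the 3 chains are used in equal numbers in C1q. Whether the low C1qa values came from the cells or from the measurement was not tested.

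**Figure D4:**
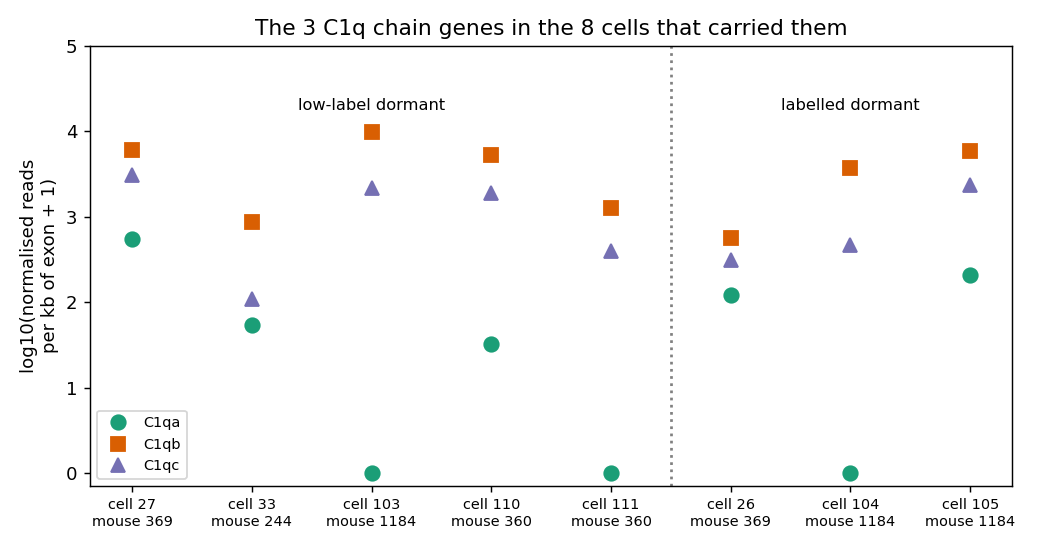
Level per kilobase of exon, log10(normalised reads per kb + 1), of C1qa (circles), C1qb (squares) and C1qc (triangles) in the 8 carriers, 5 low-label dormant cells to the left and 3 labelled dormant cells to the right of the dotted line. C1qb is above C1qc and C1qc above C1qa in each cell, and C1qa is at 0 in cells 103, 111 and 104.

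Apoe per kilobase had a median of 4696 in the carriers, close to C1qb, with a range from 321 to 77773. Its ratio to C1qb in reads, not corrected for exon lengths of 1838 and 1088 bases, ran from 0.20 in cell 27 to 25.1 in cell 110. Selenop had a median of 1198 per kilobase (567 to 4369), and Igf1 196 (2.82 to 788). The carriers thus shared the genes but not their proportions. Cells 110 and 111, from one mouse, had Apoe at 25.1 and 7.03 times C1qb, and cells 104 and 105, from another, at 1.93 and 11.4 times.

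Across the 57 cells, which share mice, library batches and depth, Spearman's rho was 0.73 between C1qb and Igf1, 0.69 between C1qc and Apoe and 0.68 between C1qb and C1qc. It was 0.68 for C1qb with Lyz2 and 0.70 for Igf1 with Lyz2, and -0.47 for C1qb and -0.24 for Apoe with eCFP. Within the 22 labelled dormant cells rho with Lyz2 was 0.82 for C1qc, 0.81 for Apoe, 0.80 for C1qb and 0.71 for Igf1, but 0.36 for Selenop and 0.40 for C1qa. Selenop and Apoe had a rho of 0.29 there. Selenop was thus the gene of the 6 whose ranks went least with Lyz2 in labelled dormant cells, as the cells with Selenop alone show.

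The genes most like the mean of the 6 over all cells, among 11837, were Ctss (cathepsin S, a protease of antigen-presenting cells) with a rho of 0.71, Cd300c2 with 0.70, Ms4a6d with 0.69, C3ar1 (the receptor for C3a) with 0.68 and Trem2 (a lipid receptor of macrophages that binds Apoe) with 0.68. Cd36 (a scavenger receptor for lipids), Smpdl3a, Ly86, Ms4a7 and Rgs1 followed, each at 0.67. Lyz2 had 0.61 and eCFP -0.32. Within labelled dormant cells, among 10240 genes, Fabp5 (a fatty acid carrier) led with 0.85, then Trem2 with 0.84, Ppard (a nuclear receptor for fatty acids) and Hhex with 0.81, and Spi1, which encodes PU.1, with 0.81. Ucp2 had 0.80, Fabp4 (another fatty acid carrier), 4930579G24Rik and Pirb 0.79 and Cybb (the oxidase of phagocytes) 0.78. Trem2 was in both sets of 10. Its highest value was 5719 in low-label, 1873 in labelled dormant and 4.35 in proliferating cells.

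The complement genes that C1q acts with were little seen. C1ra, which encodes a protease of the C1 complex, was above 0 in 0 of 6 low-label, 0 of 22 labelled dormant and 6 of 29 proliferating cells. C1s1, for its partner protease, was above 0 in 0, 1 and 4 cells. Serping1, for the inhibitor of both, was above 0 in 0, 0 and 1 cells. In carriers C1ra and Serping1 were thus not detected at this depth. Complement receptor genes were detected. Itgam, a subunit of complement receptor 3, was above 0 in 5 of 6 low-label cells, 4 of 22 labelled dormant and 0 of 29 proliferating cells, and C5ar1, the receptor for C5a, in 5, 5 and 4. Of 27 complement genes 13 were tested over all mice, of which 0 passed the adjusted test. At an unadjusted p below 0.05 there were 5 higher and 1 lower, with a median difference of 0.57. Over all genes tested 3.28% were higher and 6.22% lower, with a median of -0.35. The log2 differences were 4.17 for Itgam, 3.72 for C5ar1, 4.22 for Itgb2 (the partner of Itgam) and 3.65 for Cfp (properdin). In labelled cells 0 of 12 passed in either direction even unadjusted. Only 1.45% of all genes were higher and 0.509% lower there, so a count of 0 in so short a list says little.

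Lipid genes gave 0 of 19 tested at the adjusted p over all mice, 4 higher at an unadjusted p and a median difference of 1.46. The share higher over all genes was 3.28%, with a median of -0.35. The 4 lipid genes were Trem2 at 4.80, Apoc2 (an activator of lipoprotein lipase) at 3.59, Cd36 at 3.74 and Msr1 (a scavenger receptor) at 2.92. Apoc2 was above 0 in 4 of 6 low-label, 5 of 22 labelled dormant and 0 of 29 proliferating cells. In labelled cells 3 of 17 were higher at an unadjusted p and 0 lower, Trem2 at 2.04, Msr1 at 1.79 and Cd36 at 1.59. Among all genes in labelled cells 1.45% were higher and 0.509% lower. Receptors for Apoe were also in cells with the tumour label. Lrp1 was above 0 in 4 of 6 low-label, 17 of 22 labelled dormant and 21 of 29 proliferating cells, and Vldlr in 1, 15 and 8.

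For Selenop, the receptor Lrp8 was above 0 in 3 of 6 low-label, 15 of 22 labelled dormant and 19 of 29 proliferating cells. Of 18 genes of selenium supply tested, 0 passed the adjusted test, 3 were higher and 0 lower at an unadjusted p, and the median difference was -0.17. All genes tested gave 3.28% higher and 6.22% lower, with a median of -0.35. The 3 higher genes were Msrb1 (a methionine sulfoxide reductase) at 3.63, Gpx3 at 3.41 and Gpx1 at 1.19, both glutathione peroxidases. Selenok, the next by p, differed by 1.35. In labelled cells 0 of 17 were higher or lower at an unadjusted p, against 1.45% higher and 0.509% lower of all genes.

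For Igf1, the receptor Igf1r was above 0 in 2 of 6 low-label, 11 of 22 labelled dormant and 14 of 29 proliferating cells. Igfbp4 and Igfbp6, for IGF binding proteins, had higher medians in labelled than in low-label cells. Igfbp4 had a median of 8.54 normalised reads in low-label cells, 1601 in labelled dormant cells and 2330 in proliferating cells, and Igfbp6 of 0, 417 and 244. Of 11 genes of the IGF axis tested over all mice 0 passed the adjusted test, and at an unadjusted p Irs2 was higher by 2.36 and Igfbp4 lower with a difference of -2.93. Igfbp6 at -2.74 and Igfbp3 at -1.03 came next. Among all genes 3.28% were higher and 6.22% lower at an unadjusted p. In labelled cells Igfbp4 differed by -0.32, Igfbp6 by 0.70 and 0 of 11 passed in either direction. The shares of all genes there were 1.45% higher and 0.509% lower at an unadjusted p.

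Marker lists moved with the 6 genes over all mice. Of 16 macrophage markers tested 10 were higher and 0 lower at an unadjusted p, with a median difference of 2.41, and of 17 pan-leukocyte genes 15 were higher (median 4.61). Over all genes tested 3.28% were higher and 6.22% lower, with a median of -0.35. In labelled cells 4 of 12 macrophage markers (median 1.48) and 5 of 16 pan-leukocyte genes (median 1.44) were higher, and none passed the adjusted test. Over all genes in labelled cells 1.45% were higher, with a median of 0.09. Genes of proliferation were lower, 5 of 6 at an unadjusted p over all mice. Neutrophil markers gave 1 of 9 higher (median 2.65), monocyte markers 2 of 6 (1.12), erythroid and megakaryocyte markers 1 of 3 (1.31), and stromal markers 0 of 3 (-0.41). Dendritic markers gave 0 of 2 (-0.53) and lymphocyte markers 0 of 1 (2.12), while 2 of 5 RM1 markers were lower (-3.35). The part of these cell types in the differences was not tested. The labels' protocol describes library batches of PKH26+ cells or of PKH26- cells, without naming the cells of each, so the effects of library batch and state cannot be told apart.

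The number of spike-in RNAs above 0 per cell set apart a technical group that held both states. It was 40 to 45 in 7 dormant cells and 40 to 48 in 9 proliferating cells, from 2 mice a state, and 24 to 34 in the other 21 dormant cells and 18 to 32 in the other 20 proliferating cells, from 4 and 5 mice. Carriers were in both groups, 3 of 7 and 5 of 21 dormant cells, against 0 of 9 and 0 of 20 proliferating cells. In the cells with at least 40 spike-ins the differences were 6.79 for C1qb, 5.52 for C1qc, 4.52 for C1qa, 8.16 for Apoe, 6.63 for Selenop and 3.95 for Igf1. In the cells with fewer they were 4.66 for C1qb, 4.23 for C1qc, 0.87 for C1qa, 5.01 for Apoe, 4.92 for Selenop and 4.59 for Igf1. All 12 values were positive, which the choice of the genes favoured, so the signs are no test of a technical cause. With at least 40 spike-ins, the dormant means came from mice 369 and 244, and mouse 244 gave only cell 33. Standard errors there were 3.12 for C1qb and 3.16 for Apoe. Mouse 369 gave cells of both states with at least 40 spike-ins, and there, as log2(value + 1), C1qb averaged 4.18 in dormant and 0.47 in proliferating cells and Apoe 4.85 in dormant and 0.82 in proliferating cells.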

How the data were processed

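Single cells were profiled by full-length RNA-seq (SMARTer cDNA, Nextera XT libraries, ERCC spike-ins), per the labels' protocols. STAR, RSEM, GRCm38 and mm10 appear in the submitters' processing notes, without versions or roles. The deposited values are a signal, reads per gene and cell that the authors normalised with BASiCS, per the series text. They came in a table of all 57 cells and one of 48 cells from the 4 mice with both states. Of 28 dormant and 32 proliferating cells in the series text, 28 and 29 were analysed here. Within a cell 100% of gene values were whole multiples of 1 step (tolerance 0.01 reads), so whole reads were recovered. The count tests on these reads, edgeR and DESeq2, called 18 and 302 genes over all mice. Of 12885 Ensembl IDs, 12852 matched a symbol. No doublet caller was run, and the highest correlation between cells was 0.878.

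The mouse was the replicate. Means of log2(value + 1) per mouse and state were fitted with limma (trend, robust), for genes above 0 in at least 6 cells, with Benjamini-Hochberg adjustment. Cells of the same mouse pair the states, per the labels, and the deviations of paired means correlated at 0.337, 0.164, -0.01 and -0.01 in mice 369, 452, 1185 and 360. The scripts were tested on simulated data. The 6 genes, the lists and the thresholds were chosen with earlier results of these data known. Named genes were the 6, identity genes, the 10 genes most like their mean in all cells and in labelled dormant cells, up to 4 genes per pathway list by unadjusted p and the 5 macrophage markers found in most low-label cells. Genes named beyond these, such as S100a8, Ly6g and the receptors, were chosen after their values were seen. Exon lengths come from GENCODE vM21, and shares of cells carry counting error only. Versions were Python 3.11.15, pandas 2.3.3, numpy 2.4.6, scipy 1.17.1, matplotlib 3.10.9, R 4.3.3, limma 3.58.1, edgeR 4.0.16 and DESeq2 1.42.0.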

Additional observations from a re-analysis of the deposited data

Results flagged for a closer look

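Of 18 groups of mouse means checked, 2 held a mouse far from the others. For normally spread values chance flags about 1 group in 20, but means with many zeros are not spread so. In both flagged groups the other 5 mice were at 0, so any value above 0 would have been flagged. Mouse 452 had the highest C1qa mean in proliferating cells, 0.74 on the log2(value + 1) scale, with the other 5 mice at 0. It rests on cell 76, in which C1qa was 20.9 and C1qb 25.1 normalised reads. Mouse 369 had the highest C1qc mean in proliferating cells, 0.32, with the other 5 mice at 0, and no proliferating cell exceeded 2.94.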

How the results depend on the processing

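Of 283 alternative values of the differences of the 6 genes, 282 were positive, and 1 was negative, Apoe at -0.17 in labelled cells with Lyz2 under 1000. The genes were chosen for higher dormant values, and the settings reuse largely the same cells, so this count of signs is no test. The count of called genes was 0 with limma under every setting listed here but 2. Within shared mice, 1 gene (lower) was called without leukocyte-rich cells. Over all mice, 22 genes (6 higher, 16 lower) were called among cells with at least 40 spike-ins above 0, from 2 mice a state, and 0 among cells with fewer; the cause was not tested. Over all mice edgeR called 18 genes and DESeq2 302, and in labelled cells DESeq2 called 14; the cause was not tested. With the mouse as a replicate block in the shared mice 0 genes were called, and without it also 0, while the block changed no call. Leaving out each mouse gave 0 calls in each fit. The count of labelled dormant cells with at least 1 of the 6 genes above 0, 18 of 22, was 11 at an eCFP threshold of 1000 and 9 with at least 10 recovered reads, and ranged from 10 (without mouse 1185) to 15 on leaving out a mouse. The count with at least 3 genes high, 3 of 22, was 1 at an eCFP threshold of 1000, where cells 104 and 105 leave the class, 1 in the table of the 4 shared mice, which holds no cell of mouse 1184, and ranged from 1 (without mouse 1184) to 3 on leaving out a mouse. These and the Lyz2 and spike-in selections were added after the data were seen. Scaling each cell to its total of recovered reads moved the median difference of all genes over all mice to -0.24, against -0.35. Without leukocyte-rich cells, 17 of 28 dormant and 13 of 29 proliferating, only Apoe of the 6 was still tested (0.38). Differences rest on 6 mice a state at most, and 1 to 3 reads set many traces.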
